A study of Mus musculus with 6 samples.

Results

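The proteasome genes were the protein-coding genes whose symbol begins with *Psm*, a letter from a to g and a digit. Of the 46078 gene identifiers in the count tables, 50 met this rule, and 48 of the 50 had enough counts to be tested. The 5 genes of the immunoproteasome (*Psmb8*, *Psmb9*, *Psmb10*, *Psme1*, and *Psme2*) were set against the other 45. Bulk RNA-Seq had been performed on 3 infarcts and 3 contralateral cortices of wild type C57BL/6J mice that were 3 months old, at 7 weeks after stroke. Stroke was induced in the right hemisphere by electrocoagulation of the distal middle cerebral artery followed by hypoxia (DH stroke), and the contralateral tissue came from the corresponding region of the other hemisphere of mice that had also undergone stroke, so no library came from an uninjured brain. Infarcts were dissected by eye. Per the study's methods, RNA-Seq tissue was taken from mice given vehicle or 2-hydroxypropyl-β-cyclodextrin. The RNA-Seq comparisons of these treatments that the study reports are of aged mice. The labels of these 6 libraries name no treatment. The labels do not say which libraries came from the same mouse, nor that each came from a separate mouse, so *p* values measure the spread between these samples.

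The proteasome degrades proteins that carry ubiquitin chains. Its 20S core is a barrel of α rings and β rings in which 3 kinds of β subunit cut peptide bonds, and the 19S regulatory particle caps the barrel, recognizes ubiquitin, unfolds the substrate with a ring of ATPases and feeds it into the core. Interferon γ induces replacement catalytic subunits (β5i encoded by *Psmb8*, β1i by *Psmb9*, and β2i by *Psmb10*) and the PA28 activator encoded by *Psme1* and *Psme2*. The resulting immunoproteasome is abundant in immune cells and shapes the peptides displayed on MHC class I molecules, whereas neurons and glia of healthy cortex use mostly the constitutive subunits encoded by *Psmb5*, *Psmb6*, and *Psmb7*.

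*Psmb8* and *Psmb9* both lie in the MHC locus on chromosome 17 (GRCm38, GENCODE M21), *Psmb8* at chr17:34197721-34201454 on the plus strand and *Psmb9* at chr17:34181987-34187764 on the minus strand. *Psmb10* is at chr8:105935735-105938444 on the minus strand. *Psme1* (chr14:55578123-55581529, plus strand) and *Psme2* (chr14:55587441-55591113, minus strand) both lie on chromosome 14. The 3 catalytic genes all rose, by unequal amounts, and the 250 bases before each RefSeq start (GRCm38.p6) are shown here, 5′ to 3′ on the strand of the gene. The windows are chr17:34197945-34198194 for *Psmb8*, chr17:34187331-34187580 for *Psmb9*, and chr8:105938393-105938642 for *Psmb10*. GENCODE places the 5′ end of each gene elsewhere, so these windows cover 1 annotated start of each. The windows of *Psmb8* and *Psmb9* lie wholly inside the genes, downstream of the GENCODE 5′ ends at 34197721 and 34187764. That of *Psmb10* crosses its GENCODE 5′ end. Capitals mark a match to TTCNNNGAA, the palindromic γ-activated sequence (GAS) of interferon γ-induced promoters.
Psmb8: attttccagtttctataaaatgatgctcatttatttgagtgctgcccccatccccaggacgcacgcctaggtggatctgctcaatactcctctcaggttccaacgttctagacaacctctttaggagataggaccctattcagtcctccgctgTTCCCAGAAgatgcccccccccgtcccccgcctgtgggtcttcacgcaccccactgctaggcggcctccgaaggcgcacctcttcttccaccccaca
Psmb9: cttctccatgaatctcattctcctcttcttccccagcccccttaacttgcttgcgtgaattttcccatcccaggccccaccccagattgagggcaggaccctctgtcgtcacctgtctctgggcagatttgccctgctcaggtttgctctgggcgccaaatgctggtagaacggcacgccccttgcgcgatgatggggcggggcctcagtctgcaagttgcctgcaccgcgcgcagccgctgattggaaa
Psmb10: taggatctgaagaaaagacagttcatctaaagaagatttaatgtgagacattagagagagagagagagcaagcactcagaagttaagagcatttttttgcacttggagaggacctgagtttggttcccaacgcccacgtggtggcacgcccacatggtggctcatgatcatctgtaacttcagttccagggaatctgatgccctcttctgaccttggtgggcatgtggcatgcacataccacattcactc

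Both strands of these windows were searched for the GAS letters, for an interferon regulatory factor (IRF) element spelled as GAAA, any 2 bases and GAAA, and for TGACNNNGC, the antioxidant response element (ARE) letters bound by NRF2 and NRF1. The GAS letters were in 7.02% of 32851 RefSeq promoters of the same length, the IRF element in 2.98% and the ARE in 10.2%. Of the 42 member symbols with a promoter in the table, *Psmb8* held the GAS letters 97 bases before the start and *Psmg1* held them 243 bases before it. The IRF element was in the windows of *Psmb3*, *Psmd4*, and *Psmd9*, and in no window of the 5 immunoproteasome genes. Bases outside the windows were not searched. The window of *Psme1* also lies wholly inside its gene, and those of *Psme2* cross its GENCODE 5′ end. The bases before the GENCODE 5′ ends of *Psmb8*, *Psmb9*, and *Psme1* were therefore not searched. The ARE letters were found in 5 of the 42 symbols, *Psmb5*, *Psmb6*, *Psmc6*, *Psmd12*, and *Psmd9*, against the 10.2% of all promoters. No promoter window was available for *Psma8*, *Psmb1*, *Psmb2*, *Psmb7*, *Psmc3*, *Psmd3*, *Psmd7*, and *Psmg2*, which were not searched. A match describes the letters in the window and does not show that a factor binds there.

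Libraries held 11943570 to 19933962 counts assigned to genes. Reads that could not be assigned to a single gene made up 26.64% to 28.24% of the total in infarcts and 32.01% to 34.26% in contralateral cortices. Levels are given as CPM (counts scaled to a common library total) after TMM scaling, and folds as log2 infarct over contralateral with their SE. A gene was upregulated (rose) or downregulated (fell) where its adjusted *p* in the quasi-likelihood test of edgeR, by Benjamini-Hochberg over 15554 tested genes, was under 0.05. The regions differed widely: 65.0% of tested genes were called, 34.2% as higher in infarcts and 30.8% as lower, and 25.7% were called higher and 20.9% lower with more than a 2-fold change. The median log2 fold change over all tested genes was 0.03.

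Among the 48 tested proteasome genes, 13 were upregulated, 4 were downregulated and 31 were not called. Of the 13, 7 rose by more than 2-fold, and no member fell by as much. The median log2 fold change of the tested members was 0.11. In 15 members every infarct lay above every contralateral cortex and in 6 every infarct lay below, against 37.6% and 34.7% of all tested genes and 72.3% in either direction. All 5 immunoproteasome genes rose by more than 2-fold, with a median log2 fold change of 2.34. Of the 43 other tested members 8 rose and 4 fell, with a median of 0.07, and the 2 that rose by more than 2-fold were *Psme2b*, a close copy of *Psme2*, and *Psma8*, an α subunit known from testis. In bulk tissue a change in the number of cells of a type and a change in RNA per cell cannot be told apart.

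**Figure D1:**
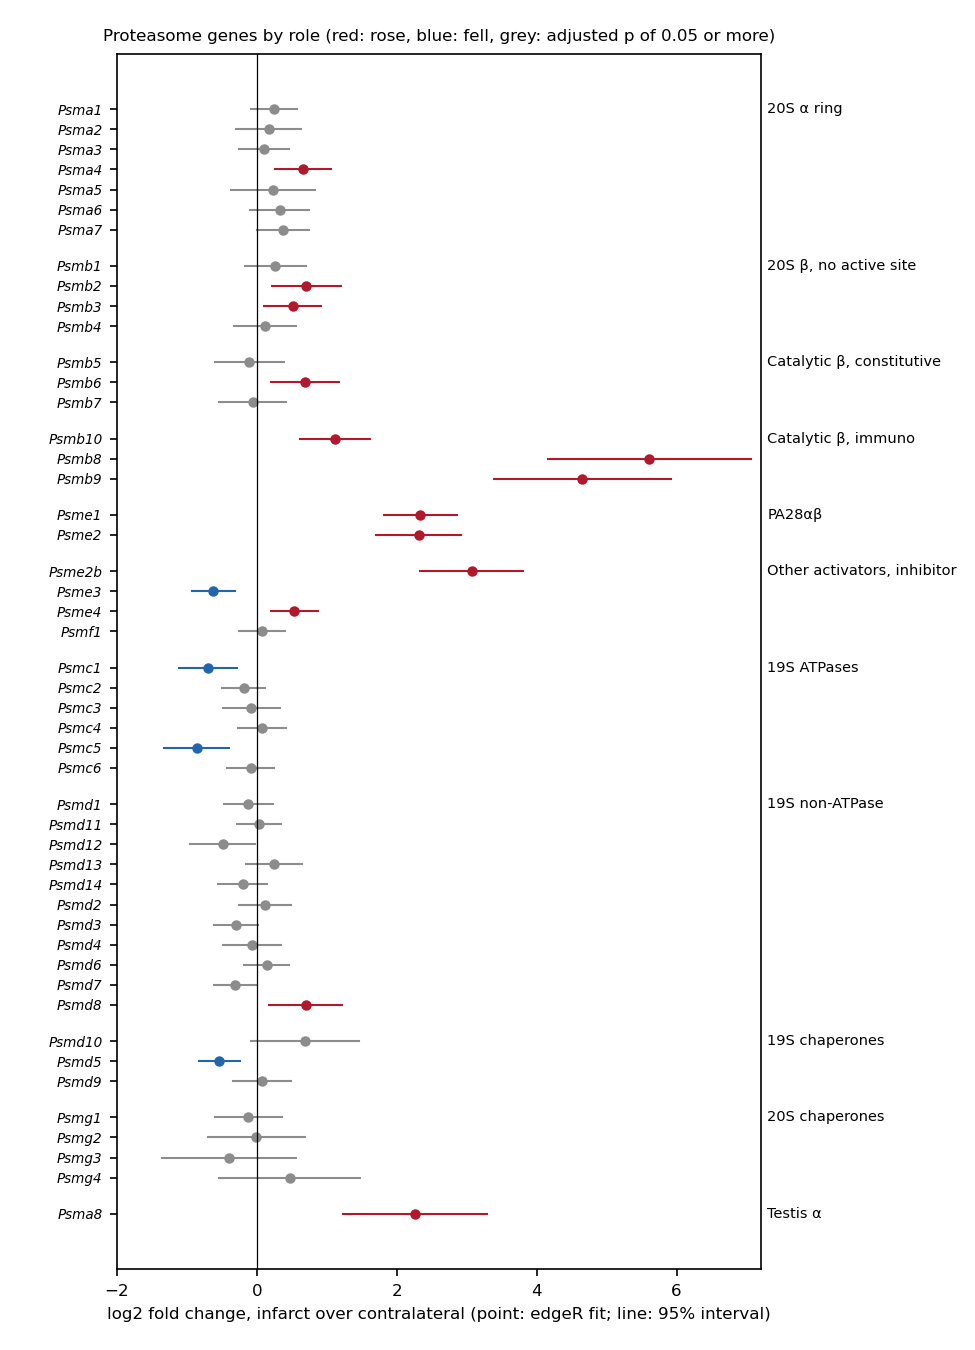
The log2 fold change (infarct over contralateral, x axis) of each of the 48 tested proteasome genes is plotted by role, with points for the edgeR fit and lines for 95% intervals. Red points rose, blue points fell and grey points were not called. *Psmb8* and *Psmb9* stand farthest to the right at 5.61 and 4.65, whereas most genes of the 20S core and the 19S particle lie within 1 of 0.

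*Psmb8*, which encodes the inducible chymotrypsin-like subunit β5i, was nearly undetected in contralateral cortex. Infarcts 1, 2, and 3 held 78, 44, and 72 counts, whereas contralateral cortices 1, 2, and 3 held 0, 3, and 1, and values below follow the same order. In CPM these were 6.21, 3.23, and 4.91 against 0, 0.195, and 0.0923. The regions did not overlap, and the log2 fold change was 5.61 ± 0.65 (SE, adjusted *p* = 4.6e-05, edgeR). With so few contralateral counts the size of this fold was poorly fixed. The summed counts, 194 and 4, gave a scaled ratio of 53.9 with an exact 95% counting interval of 20.7 to 199.7, and leaving out 1 library moved the log2 fold change from 4.89 (without contralateral 1) to 6.80 (without contralateral 2). An antisense transcript, *Gm20496*, covers 14.7% of the annotated exon bases of *Psmb8*. The strand setting of the authors' counting is not given in the sources used here, so reads from that stretch cannot be told apart.

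*Psmb9* encodes β1i, the replacement for the caspase-like subunit. Infarcts held 113, 111, and 69 counts and the other side held 6, 7, and 0, or 9.001, 8.15, and 4.71 CPM against 0.313, 0.456, and 0. The regions did not overlap, and infarct 3 was the lowest infarct. *Psmb9* rose by a log2 fold change of 4.65 ± 0.56 (SE, adjusted *p* = 6.5e-05, edgeR). The summed counts of 293 and 13 gave a scaled ratio of 25.0 (exact 95% counting interval 14.4 to 47.6), and dropping contralateral 3 or contralateral 2 gave log2 fold changes of 4.23 and 5.17. *Tap1*, which rose as well, covers 5.79% of the exon bases of *Psmb9* on the other strand.

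*Psmb10*, encoding the inducible trypsin-like subunit β2i, was the one catalytic immunoproteasome gene with a clear level in contralateral cortex. It held 402, 318, and 287 counts in infarcts against 239, 149, and 134 in contralateral cortices. The corresponding levels were 32.02, 23.4, and 19.6 CPM against 12.5, 9.70, and 12.4 CPM, with no overlap. *Psmb10* rose with a log2 fold change of 1.12 ± 0.22 (SE, adjusted *p* = 0.0014, edgeR). Its 95% interval ran from 0.62 to 1.61 and so included a 2-fold change, and tested against a 2-fold change instead of no change it was not called (glmTreat, adjusted *p* = 0.28). Per kilobase of transcript the mean contralateral levels of *Psmb8*, *Psmb9*, and *Psmb10* were 0.0589, 0.190, and 8.79 CPM, and the infarct levels were 2.94, 5.39, and 19.1 CPM.

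The PA28 activator genes rose by nearly the same amount as each other. *Psme1*, encoding PA28α, was at 96.3, 61.5, and 57.6 CPM in infarcts and 15.2, 11.9, and 15.6 CPM in contralateral cortices (log2 fold change 2.34 ± 0.23 SE, adjusted *p* = 1.7e-05, edgeR). *Psme2*, encoding PA28β, was at 76.1, 58.7, and 55.6 CPM against 16.5, 7.88, and 13.8 CPM, a log2 fold change of 2.31 ± 0.27 (SE, adjusted *p* = 6e-05, edgeR). In both genes infarct 1 was the highest library and the regions did not overlap. *Psme2b*, a single-exon copy on chromosome 11 (chr11:48945354-48946190, minus strand), held 70, 92, and 86 counts in infarcts and 18, 8, and 7 on the other side, and rose by 3.07 ± 0.33 on the log2 scale (SE, adjusted *p* = 3e-05, edgeR). Of the 75-base stretches of its exons, 60.2% also occur in *Psme2*, so the split of reads between the genes is uncertain.

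**Figure D2:**
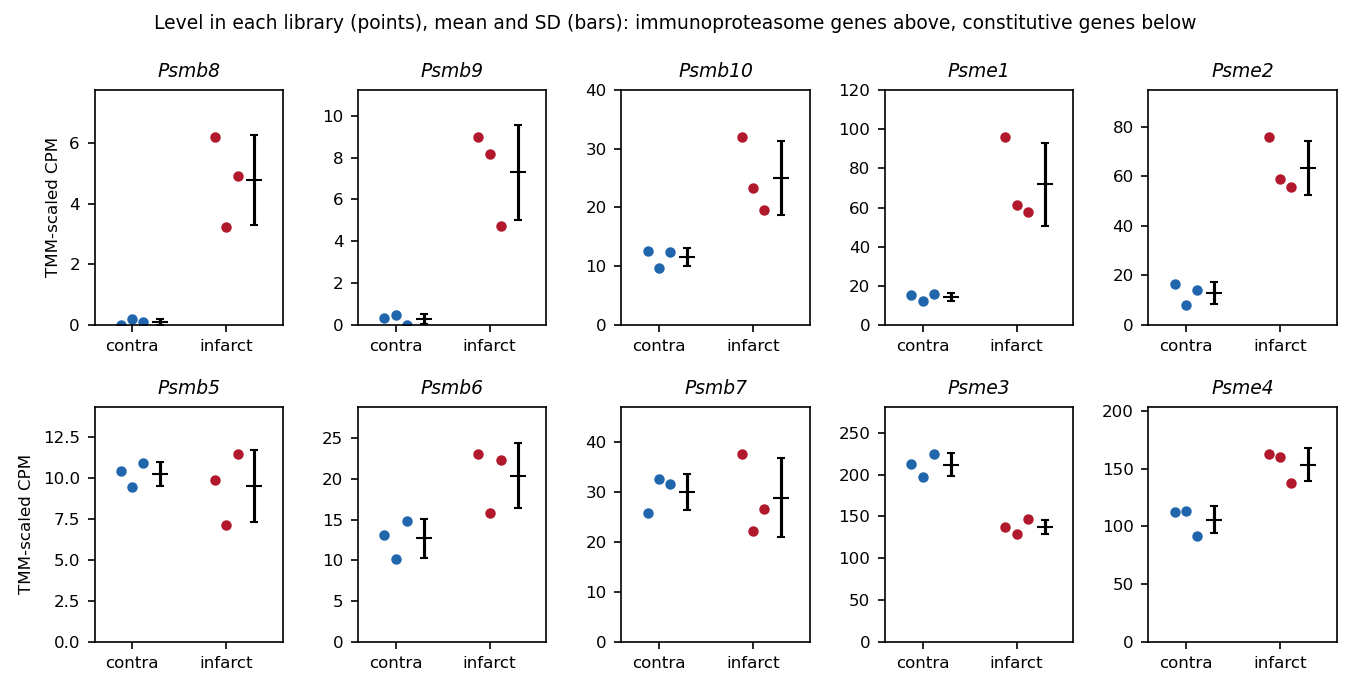
TMM-scaled CPM (y axis, from 0) of the 5 immunoproteasome genes (upper row) and of *Psmb5*, *Psmb6*, *Psmb7*, *Psme3*, and *Psme4* (lower row) in each contralateral cortex (blue) and infarct (red), with mean and SD (bars, n = 3). The infarct points lie above all contralateral points in every upper panel. In the lower row those of *Psmb6* and *Psme4* also lie above, those of *Psmb5* and *Psmb7* overlap and those of *Psme3* lie below.

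The constitutive catalytic genes did not move as a group. *Psmb5*, the chymotrypsin-like β5, was at 9.88, 7.12, and 11.5 CPM in infarcts and 10.4, 9.44, and 10.9 CPM in contralateral cortices. The regions overlapped, and the log2 fold change was −0.11 with a 95% interval of −0.60 to 0.39 (adjusted *p* = 0.69, edgeR). *Psmb7*, the trypsin-like β2, was at 37.6, 22.3, and 26.6 CPM against 25.8, 32.5, and 31.6 CPM. Infarct 1 was the highest and infarct 2 the lowest of the 6 libraries, and the log2 fold change was −0.06 with an interval of −0.54 to 0.42 (adjusted *p* = 0.83, edgeR). *Psmb6*, the caspase-like β1, was at 23.1, 15.9, and 22.3 CPM against 13.2, 10.2, and 14.9 CPM, without overlap. It rose with a log2 fold change of 0.69 ± 0.22 (SE, adjusted *p* = 0.018, edgeR), a call that was lost without contralateral 1 (adjusted *p* = 0.0527) or contralateral 2 (adjusted *p* = 0.0786). Of the 75-base stretches of *Psmb5*, 36.8% recur in *Gm3375* or *Mir686*, which leaves its counts less certain than those of *Psmb6*, where none recur. Of the stretches of *Psmb7*, 7.83% recur in *Nek6*, which covers 11.8% of its annotated exon bases on the other strand. The counts of *Psmb7* thus share the uncertainty over the strand setting.

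Each immunoproteasome subunit was then set against the constitutive subunit whose place it takes, as the ratio of counts per kilobase of transcript within a library, so that no scaling between libraries entered. The ratio of *Psmb8* to *Psmb5* was 0.347, 0.250, and 0.237 in infarcts 1, 2, and 3. In contralateral cortices 2 and 3 it was 0.0114 and 0.00468, and in contralateral 1, where *Psmb8* had 0 counts, 3 counts would have given 0.00832. The ratio of *Psmb9* to *Psmb6* was 0.230, 0.303, and 0.125 in infarcts and 0.0141 and 0.0265 in contralateral cortices 1 and 2, with a limit of 0.0110 at 3 counts in contralateral 3. The ratio of *Psmb10* to *Psmb7* was 0.754, 0.929, and 0.653 in infarcts, against 0.428, 0.264, and 0.347 on the contralateral side. In each of the 3 pairs every infarct lay above every contralateral cortex. With 0.5 added to each count the ratios differed between regions by 5.77, 4.48, and 1.18 on the log2 scale, or 54.5-fold, 22.4-fold, and 2.26-fold. The exact two-sided permutation test gave *p* = 0.1 for each pair, also after adjustment over the 3 pairs, which is the smallest value that 3 against 3 libraries allow. Leaving out 1 library changed the log2 differences to between 4.84 (without contralateral 1) and 6.47 (without contralateral 2) for the first pair, between 3.32 (without contralateral 3) and 5.29 (without contralateral 2) for the second, and between 0.997 and 1.34 for the third.

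**Figure D3:**
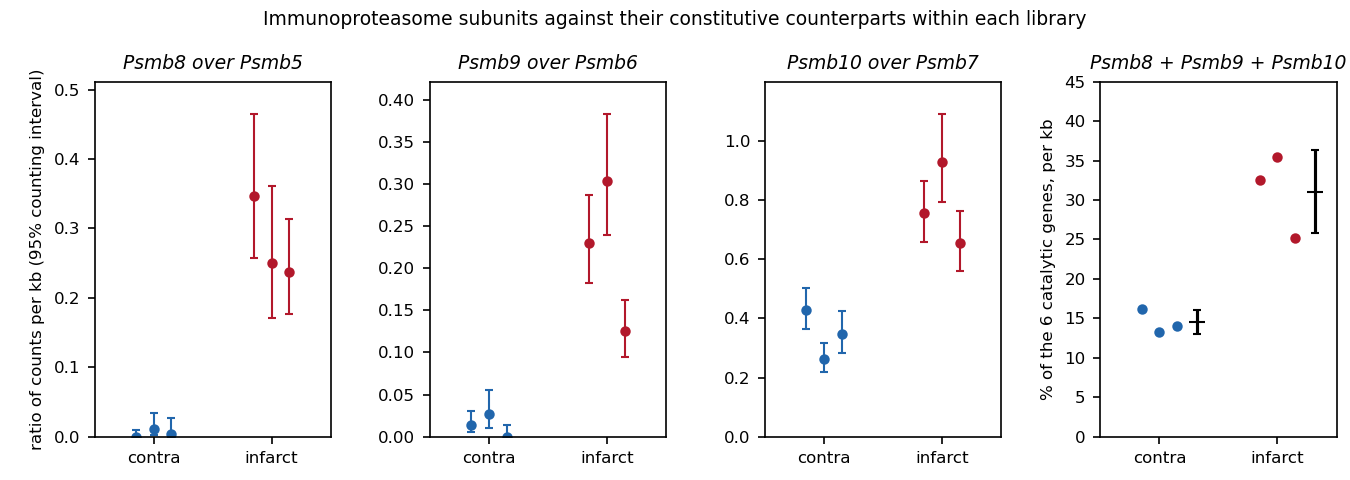
The first 3 panels show the ratio of counts per kilobase (y axis) of *Psmb8* to *Psmb5*, *Psmb9* to *Psmb6*, and *Psmb10* to *Psmb7* in each library, with lines for exact 95% counting intervals. The last panel shows the percentage of the summed per-kilobase level of the 6 catalytic genes that came from the immunoproteasome genes, with mean and SD (n = 3); infarcts (red) averaged 31.1% and contralateral cortices (blue) 14.5%.

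Over the 6 catalytic genes together, the immunoproteasome genes supplied 32.5%, 35.5%, and 25.2% of the per-kilobase level in infarcts (31.1% ± 5.28, SD, n = 3) and 16.2%, 13.3%, and 14.1% in contralateral cortices (14.5% ± 1.53, SD, n = 3). *Psmb10* made up nearly all of the contralateral share. The constitutive genes remained the larger part in every library. Transcript length decides these levels: with the union of all annotated exons as length, an alternative added after seeing the data, the mean shares were 37.7% and 20.3% and the ratio of *Psmb10* to *Psmb7* in infarcts was 1.71, 2.11, and 1.48, above 1, whereas the differences between regions in the 3 log2 ratios do not depend on length.

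The activators other than PA28αβ changed in opposite directions. *Psme3* encodes PA28γ, a nuclear relative of PA28αβ that is not induced by interferon γ. It was at 137.2, 129.2, and 146.4 CPM in infarcts and 212.6, 197.4, and 225.0 CPM in contralateral cortices and fell with a log2 fold change of −0.62 ± 0.14 (SE, adjusted *p* = 0.0026, edgeR). *Psme4*, encoding the activator PA200, was at 163.1, 160.7, and 137.6 CPM against 112.4, 113.3, and 92.1 CPM and rose with a log2 fold change of 0.54 ± 0.15 (SE, adjusted *p* = 0.0091, edgeR). In neither gene did the regions overlap. The inhibitor gene *Psmf1* was at a log2 fold change of 0.07 (adjusted *p* = 0.67, edgeR). Per kilobase, *Psme1* stood at 0.171, 0.144, and 0.166 of *Psme3* in contralateral cortices and at 1.68, 1.14, and 0.943 of it in infarcts, 7.60-fold higher. *Psme2* stood at 0.215, 0.111, and 0.170 against 1.53, 1.26, and 1.05, 7.93-fold higher. With union exon lengths the infarct ratios were below 1, from 0.525 to 0.937 for *Psme1* and from 0.635 to 0.927 for *Psme2*, so which gene is higher in infarcts depends on the length used.

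Of the 14 constitutive genes of the 20S core, 4 rose and none fell, against 34.2% and 30.8% of all tested genes. The median log2 fold change of the 14 was 0.26, with a range from −0.11 to 0.71. In the α ring, whose N termini gate the barrel, 1 of 7 genes was called. *Psma4* (α3) was at 43.3, 30.3, and 32.7 CPM in infarcts against 23.7, 21.8, and 21.96 CPM, without overlap, and rose with a log2 fold change of 0.66 ± 0.18 (SE, adjusted *p* = 0.0087, edgeR). The smallest α change was that of *Psma3*, at 0.10 (adjusted *p* = 0.60, edgeR). All 7 α genes had log2 fold changes above 0, and *Psma7* had no overlap between regions although it was not called (0.38, adjusted *p* = 0.070, edgeR).

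Among the 4 β subunits without an active site, *Psmb2* (β4) was at 19.6, 13.1, and 13.2 CPM against 8.04, 10.4, and 9.69 CPM and rose with a log2 fold change of 0.71 ± 0.22 (SE, adjusted *p* = 0.018, edgeR). *Psmb3* (β3) was at 57.4, 42.2, and 42.9 CPM against 33.0, 28.8, and 38.2 CPM and rose by 0.51 ± 0.18 (SE, adjusted *p* = 0.032, edgeR). *Psmb4* (β7) changed least, at 0.12 (adjusted *p* = 0.62, edgeR). The calls of *Psmb2* and *Psmb3* were close to the threshold and rested on single libraries, whereas *Psma4* was called whichever library was left out. Of the 14 core genes, 2 rose without infarct 1, 1 without contralateral 1 and 2 without contralateral 2. With library totals in place of TMM, which moved the median of all genes by 0.20, 7 of the 14 rose. The 4 genes that rose and *Psma7* were the 5 core genes whose regions did not overlap. In each the infarcts were higher, as in 37.6% of all tested genes.

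The 17 genes of the 19S particle had a median log2 fold change of −0.09, with 1 gene called higher and 2 lower. Among all tested genes these shares were 34.2% and 30.8%. The called ATPase genes were both lower in infarcts. *Psmc5* (Rpt6) was at 47.4, 29.2, and 40.0 CPM in infarcts against 60.5, 66.4, and 84.4 CPM and fell with a log2 fold change of −0.86 ± 0.21 (SE, adjusted *p* = 0.0047, edgeR). *Psmc1* (Rpt2) was at 31.0, 25.6, and 29.1 CPM against 42.7, 39.2, and 57.9 CPM and fell with a log2 fold change of −0.70 ± 0.19 (SE, adjusted *p* = 0.0075, edgeR). The regions overlapped in neither. The other 4 ATPase genes were not called and reached at most 0.07 (*Psmc4*).

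Of the 11 non-ATPase 19S genes, *Psmd8* (Rpn12), a lid subunit, was the one called. It was at 55.8, 30.0, and 38.1 CPM in infarcts against 22.3, 25.0, and 29.1 CPM and rose with a log2 fold change of 0.70 ± 0.23 (SE, adjusted *p* = 0.023, edgeR). Infarct 1 stood above the other infarcts, and the call was lost without it (adjusted *p* = 0.0599), without contralateral 1 (adjusted *p* = 0.0973) or without contralateral 2 (adjusted *p* = 0.077). The lid gene *Psmd12* (Rpn5) had the lowest log2 fold change of the 11, −0.49 (adjusted *p* = 0.059, edgeR), and passed the threshold without infarct 1 (adjusted *p* = 0.0452) or contralateral 1 (adjusted *p* = 0.018). *Psmd3* (Rpn3) and *Psmd7* (Rpn8) had every infarct below every contralateral cortex but were not called, at −0.30 (adjusted *p* = 0.085, edgeR) and −0.32 (adjusted *p* = 0.060, edgeR). Among the genes for ubiquitin handling, the receptor *Psmd4* was at −0.07 (adjusted *p* = 0.76, edgeR) and the deubiquitinase *Psmd14* at −0.21 (adjusted *p* = 0.27, edgeR).

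**Figure D4:**
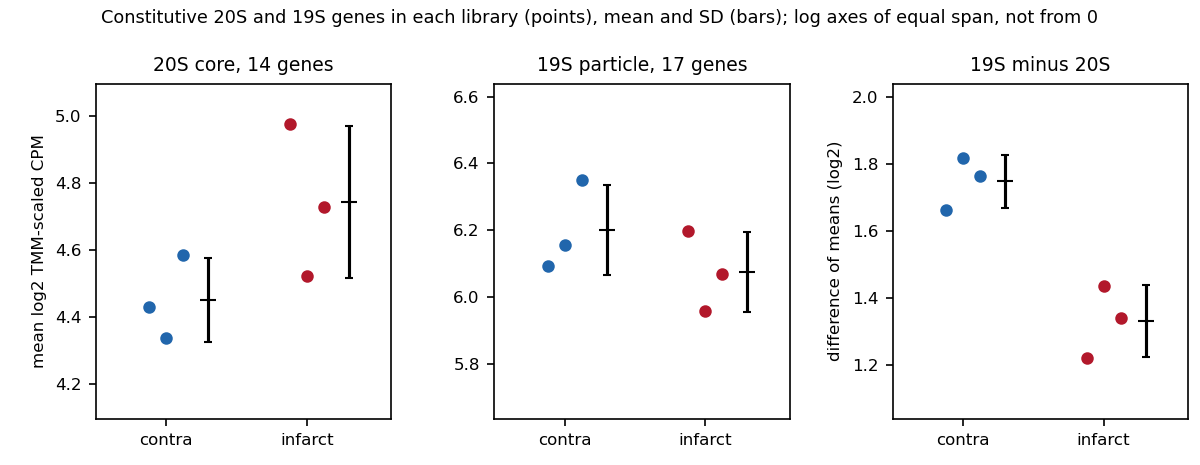
Mean log2 TMM-scaled CPM of the 14 constitutive 20S core genes (left), of the 17 19S genes (middle) and the 19S mean minus the 20S mean (right) in each library, with mean and SD (bars, n = 3). The y axes are on a log2 scale, do not start at 0 and span the same range; the points of the regions overlap in the left and middle panels and not in the right panel.

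The balance between the particles was compared within libraries. The mean log2 CPM of the 19S genes exceeded that of the constitutive 20S genes by 1.22, 1.44, and 1.34 in infarcts (1.33 ± 0.11, SD, n = 3) and by 1.66, 1.82, and 1.77 in contralateral cortices (1.75 ± 0.08, SD, n = 3). Every infarct lay below every contralateral cortex, with a difference of −0.42 in which scaling between libraries cancels. This difference is a description without a test, since the genes were grouped with results known. The separate means of the 20S and of the 19S genes overlapped between regions, and the sign of the 19S median was not stable: it was 0.11 with library totals and 0.02 without contralateral 3. Per kilobase, the core genes ranged from 5.13 CPM (*Psma2*) to 62.0 CPM (*Psmb3*) in infarcts with a median of 24.9 CPM, and from 4.56 CPM (*Psma2*) to 43.5 CPM in contralateral cortices with a median of 19.3 CPM. The 19S genes ranged from 18.0 CPM (*Psmc1*) to 88.6 CPM (*Psmd3*) with a median of 34.4 CPM in infarcts, and from 16.5 CPM (*Psmd8*) to 109 CPM (*Psmd3*) with a median of 39.1 CPM in contralateral cortices.

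The genes that help assemble the particles gave 1 call among 7, against 65.0% of all tested genes called in either direction. *Psmd5*, a chaperone of the 19S base, was at 47.5, 50.0, and 48.9 CPM in infarcts and 71.9, 68.8, and 71.5 CPM in contralateral cortices. Replicates were close together, and *Psmd5* fell with a log2 fold change of −0.54 ± 0.13 (SE, adjusted *p* = 0.0046, edgeR). *Psmd10* (gankyrin) had a log2 fold change of 0.69 without overlap between regions but was not called (adjusted *p* = 0.10, edgeR), and *Psmd9* was at 0.07 (adjusted *p* = 0.75, edgeR). The 4 core chaperone genes ranged from −0.40 (*Psmg3*, adjusted *p* = 0.43) to 0.47 (*Psmg4*, adjusted *p* = 0.38, edgeR) and were low, with a median of 2.38 CPM per kilobase in contralateral cortices. At this depth their intervals were wide, that of *Psmg4* running from −0.54 to 1.48.

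The tissue-restricted core genes were near the floor. *Psma8*, the α subunit of the testis proteasome, held 33, 41, and 45 counts in infarcts and 13, 13, and 2 in contralateral cortices, without overlap, and rose with a log2 fold change of 2.27 ± 0.46 (SE, adjusted *p* = 0.0017, edgeR). *Psmb11*, which encodes β5t of the thymus, had 0, 1, and 2 counts in infarcts against 2, 2, and 3 in the contralateral libraries and was not tested. *Psmc3ip* met the symbol rule only, since it encodes a partner of meiotic recombinases and no proteasome subunit. It had 7, 0, and 9 counts against 5, 7, and 3 and was not tested.

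Genes of the interferon γ path and of peptide supply to MHC class I rose with the immunoproteasome genes. Of the 15 genes on this list 14 were tested and all 14 rose, 13 of them by more than 2-fold. Among all tested genes 34.2% rose, and 25.7% rose by more than 2-fold. The median log2 fold change of the 14 was 3.42. *Nlrc5*, the transactivator of MHC class I genes and of *Psmb9*, rose most, from 0.418, 1.30, and 0.461 CPM in contralateral cortices to 63.7, 44.8, and 32.2 CPM in infarcts, or by 5.99 ± 0.45 on the log2 scale (SE, adjusted *p* = 6.6e-06, edgeR). The peptide transporter genes *Tap1* and *Tap2* rose by 4.83 ± 0.32 and 3.55 ± 0.30 (SE, adjusted *p* = 1.5e-06 and 6.3e-06, edgeR). *Irf1*, an interferon-induced transcription factor gene, rose by 3.68 ± 0.31 (SE, adjusted *p* = 6.8e-06, edgeR), and the kinase gene *Jak1* changed least, at 0.66 ± 0.17 (SE, adjusted *p* = 0.0058, edgeR). *Ifng* itself had 2, 6, and 0 counts in infarcts and 0 in every contralateral cortex and was not tested.

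Genes that work with the proteasome without being subunits gave calls in both directions. Of the 22 tested, 5 rose and 10 fell, against 34.2% and 30.8% of all tested genes. The median log2 fold change of the 22 was −0.13. *Nfe2l2*, encoding the stress factor NRF2, rose most, from 23.2, 23.6, and 24.4 CPM to 268.0, 323.2, and 198.5 CPM, a log2 fold change of 3.47 ± 0.20 (SE, adjusted *p* = 5.9e-07, edgeR). *Nfe2l1*, encoding NRF1, the factor that restores proteasome synthesis when proteolysis is impaired, was at −0.01 with a 95% interval of −0.34 to 0.32 (adjusted *p* = 0.96, edgeR). *Ddi2*, encoding the protease that activates NRF1, was among the 5 that rose, at 0.81 ± 0.15 (SE, adjusted *p* = 0.0010, edgeR). *Pomp*, the chaperone that completes the 20S core, was at −0.13 with an interval of −0.67 to 0.40 (adjusted *p* = 0.64, edgeR). *Ubqln4*, a shuttle that carries ubiquitinated proteins to the proteasome, had the lowest value, −1.58 ± 0.14 (SE, adjusted *p* = 7.3e-06, edgeR), and the proteasome-bound deubiquitinase genes *Usp14* and *Uchl5* fell with log2 fold changes of −1.11 ± 0.14 and −0.88 ± 0.16 (SE, adjusted *p* = 9.6e-05 and 0.00077, edgeR). *Ddi2*, *Usp14*, and *Uchl5* were picked after their values were seen. Without contralateral 1 or contralateral 2, 3 genes of this list rose.

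**Figure D5:**
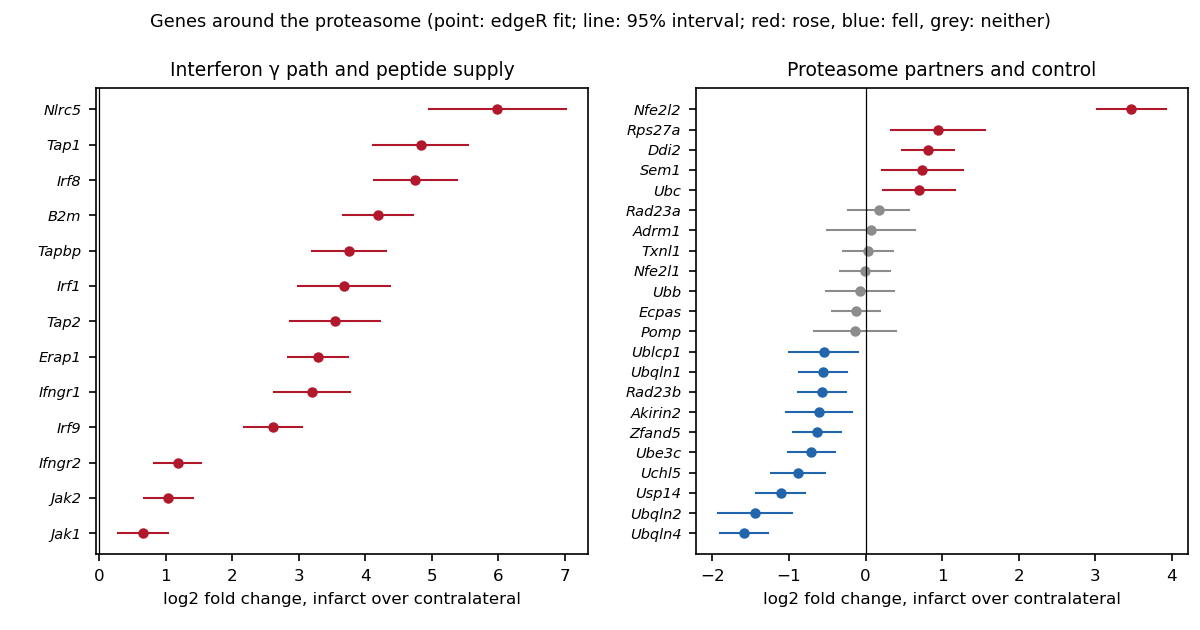
The log2 fold change (infarct over contralateral, x axis) of 13 of the 14 tested genes of the interferon γ path and peptide supply (left) and of the 22 tested proteasome partners (right), with points for the edgeR fit and lines for 95% intervals. All points on the left are red (rose), from *Jak1* at 0.66 to *Nlrc5* at 5.99; on the right 5 are red, 10 are blue (fell) and 7 are grey (not called).

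Markers of cell types moved with the regions as well, where 34.2% of all tested genes rose and 30.8% fell. The summed level of 12 microglia and macrophage markers was 2494 to 3345 CPM in infarcts and 255.0 to 343.0 CPM in contralateral cortices, and all 12 rose. Of 10 T and NK cell markers, the 9 tested rose, with sums of 138.3, 57.6, and 36.0 CPM in infarcts 1, 2, and 3 and 0.391 to 0.679 CPM in contralateral cortices, where *Cd2*, *Cd3d*, *Cd8a*, *Klrb1c*, and *Prf1* were at 0 in each library. The 6 B and plasma cell markers all rose, with sums of 2266, 835.6, and 253.8 CPM against 1.41 to 3.88 CPM. All 12 neuron markers fell, from 12570 to 13330 CPM in contralateral cortices to 909.2, 1228, and 2597 CPM in infarcts 1, 2, and 3. The sum of the 5 immunoproteasome genes was 219.6, 155.0, and 142.4 CPM in infarcts 1, 2, and 3. In contralateral cortices it was 30.1 to 44.5 CPM. Infarct 1 had the highest immunoproteasome, macrophage, T cell and B cell sums and the lowest neuron sum, and infarct 3 the reverse. Non-immune lists shared this order: fibroblast sums were 5786, 5257, and 4667 CPM and endothelial sums 433.5, 347.3, and 294.6 CPM. Oligodendrocyte sums (4103, 4727, and 6691 CPM) and astrocyte sums (4515, 4835, and 6910 CPM) ran in the opposite order, as the neuron sums did. The part of cell makeup in the changes of the proteasome genes was not tested. Of the remaining lists, 6 of 6 oligodendrocyte, 4 of 5 endothelial and 5 of 5 fibroblast markers rose, and of 5 astrocyte markers 2 rose and 2 fell.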

How the data were processed

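Each of 3 infarcts and 3 contralateral cortices gave 1 RNA-Seq library, grouped by the labels. The authors used TruSeq stranded mRNA libraries and paired reads, and per the study's methods and the submitters' processing notes they ran bcl2fastq 2.19, Trimmomatic 0.32, STAR 2.5.2b on GRCm38 and HTSeq; the authors deposited raw counts per Ensembl gene. The version, annotation and strand setting of HTSeq are not given in the sources used here. The 5 entries naming no gene were left out.

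Of the identifiers, 45143 matched GENCODE M21 and 935 did not. edgeR 4.0.16 in R 4.3.3 was used with filterByExpr, TMM, robust quasi-likelihood fits with region as the only term, and Benjamini-Hochberg adjustment. SE is the log2 fold change over the square root of F. DESeq2 1.42.0, limma 3.58.1 voom and glmTreat, other scalings and filters, a replicate block and leaving out each library were alternatives. The code was tested on simulated data. Ratios used the length of the principal transcript (GENCODE) and the exact permutation test; because *Psmb8* and *Psmb9* had libraries at 0, 0.5 was added to all counts in the log2 ratios, where the plan had no pseudocount. Counting intervals are exact, at 95%, and cover counting error only. Python 3.11.15, pandas 2.3.3, SciPy 1.17.1, and matplotlib 3.10.9 were used.

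Members and lists were chosen with earlier results of these data known. Named are the immunoproteasome and constitutive catalytic genes, in each other class the largest and smallest log2 fold change, calls against most of the class and untested members, in the other lists the largest and smallest change with *Ifng*, *Irf1*, *Nlrc5*, *Tap1*, *Tap2*, *Pomp*, and *Nfe2l1*; other members were free to be named, and a few genes of these lists are not reported here. Replicates of a region differed beyond sampling noise (chi-square per degree of freedom of at least 13.4).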

Additional observations from a re-analysis of the deposited data

How the results depend on the processing

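No called gene changed direction under the alternatives run. DESeq2 and limma voom called 13 members higher and 4 lower, as did the edgeR fit, library totals called 18 and 4, and leaving out 1 library gave 9 to 13 and 4 to 5. Requiring a log2 fold change beyond 1 left 7 members higher and 0 lower, and testing against a 2-fold change (glmTreat) left 6 and 0. For the partner list the same settings left 1 and 1 higher and 3 and 2 lower, and leaving out 1 library gave 3 to 5 higher and 8 to 10 lower. Over all genes glmTreat called 3192 higher and 2329 lower, against 5324 and 4787. All 14 tested interferon γ path genes rose whichever library was left out. Requiring 10 counts in every library left 10 members higher and 4 lower and removed *Psmb8*, *Psmb9*, *Psme2b*, and *Psma8*, which rose with the default filter, from the test along with *Psmg3* and *Psmg4*, while *Psma7* was called there (adjusted *p* = 0.0483).

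Same-numbered libraries are not said to share a mouse. Their deviations correlated at −0.19, 0.10, and 0.00, and those of differently numbered libraries at −0.24 to 0.18. These correlations cannot tell whether same-numbered libraries came from the same mouse, since both kinds of pair span a similar range. With the replicate block 13 members rose and 4 fell in edgeR and 11 and 4 in DESeq2, which did not call *Psmb2* (adjusted *p* = 0.0709) and *Psmb3* (adjusted *p* = 0.0677). For the 3 log2 ratios the block cannot move the mean difference, since the mean of 3 paired differences equals the difference of the means. Depth limited the low genes: the 95% interval of *Psmg3* ran from −1.35 to 0.55.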
